A study of Mus musculus with 4 samples.

Results

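The genes described here encode the proteins of the cytosolic ribosome. They are the genes whose symbol starts with Rpl or Rps followed by a digit, together with Rpsa, Rplp0, Rplp1 and Rplp2, without pseudogene symbols, the Rps6k kinases and 6 named paralogs or binding partners. The rule found 79 members among 19491 genes listed in any library, and all 79 were listed in each of the 4 libraries. Levels are given in UMIs (unique molecular identifiers), each of which marks 1 captured RNA molecule. The libraries hold CD45+ cells, that is, hematopoietic cells, sorted from the brain or the dura mater of C57BL/6J mice of 8 weeks on day 3 after a sham operation (S3, the controls in the labels) or photothrombotic injury (PTI; D3), in which a light-activated dye clots vessels under the skull. There is 1 library per condition, and the number of mice in it is not given in the sources used here. With no replicates no test was made, and every interval below covers counting error only.

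Ribosomal proteins are named for the subunit they sit in, Rpl for the large subunit and Rps for the small one. Rplp0, Rplp1 and Rplp2 form the acidic stalk that recruits elongation factors, and Rpsa is the laminin receptor precursor of the small subunit. Their mRNAs are among the most abundant of a cell and begin, as a rule, with a run of pyrimidines at the 5′ end (a 5′ terminal oligopyrimidine, or TOP, motif), through which mTORC1 and Larp1 set how well they are translated. Lymphocytes at rest and dividing precursors are known for a large ribosomal fraction, and mature neutrophils for a small one.

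Matched by symbol to GENCODE vM21 on GRCm38, the members lay on 19 chromosomes, with 14 on chromosome 7 and 4 on chromosome X. Their coding sequences had a median of 453 nt and ran from 75 nt (Rpl41) to 1257 nt. Of the members, 30 (38.0%) hold an annotated snoRNA inside the gene, as against 1.24% of 16163 other coding genes. Rps27rt is the only member with a single exon, at chr9:114982366-114982739 on the minus strand.

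RefSeq promoter windows (GRCm38.p6, 300 bases each) were found for 59 of the 79 members. A run of at least 8 C or T letters within 5 bases of the annotated start stood in 31.9% of 69 member windows and in 9.72% of 32851 windows of all genes. The motif CCGGAAG, searched on both strands, was in 36.2% of member windows and 8.86% of all windows, and TATAAA in 8.70% and 13.6%. The windows below run from 50 bases before the start to 30 bases from it on, 5′ to 3′. The pair Rps27 and Rps27rt is shown because their transcripts share their opening letters and because both were among the lowest members in the injured brain. The capitals in these 2 windows mark the 29-base stretch they share, which begins at the start of Rps27rt and 1 base after the start of Rps27, and the letters before it differ.

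Rps27 (chr3:90213619-90213698, minus strand): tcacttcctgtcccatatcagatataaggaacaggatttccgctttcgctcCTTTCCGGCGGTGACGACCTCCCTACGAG
Rps27rt (chr9:114982710-114982789, minus strand): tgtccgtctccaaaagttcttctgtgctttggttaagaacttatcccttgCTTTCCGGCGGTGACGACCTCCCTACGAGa

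In the next windows the capitals mark the longest run of C and T that reaches within 5 bases of the start. In Rplp0 this run ends before the start. Rpl38 was low and Rpl15 and Rplp0 were high in the injured brain library, and Rps9 took its largest share in mature neutrophils. The run has 10 letters in Rpl38, 17 in Rpl15, 9 in Rps9 and 4 in Rplp0. Rps28, which was low in the injured brain library like Rpl38, has a run of 4 letters. A long run and a short one were thus each found among low and among high members. A run is a description of these letters and not a mapped start.

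Rpl38 (chr11:114668530-114668609, plus strand): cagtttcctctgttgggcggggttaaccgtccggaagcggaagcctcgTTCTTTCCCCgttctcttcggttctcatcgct
Rpl15 (chr14:18270957-18271036, minus strand): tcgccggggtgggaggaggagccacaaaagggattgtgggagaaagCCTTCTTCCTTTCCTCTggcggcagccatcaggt
Rplp0 (chr5:115559417-115559496, plus strand): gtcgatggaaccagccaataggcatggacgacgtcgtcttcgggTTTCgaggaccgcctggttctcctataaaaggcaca
Rps9 (chr7:3703991-3704070, plus strand): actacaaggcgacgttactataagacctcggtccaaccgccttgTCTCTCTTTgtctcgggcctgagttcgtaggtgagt

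Depth ran from 49003977 UMIs in brain S3 to 115154317 in brain D3, with 54749012 and 55887697 in dura mater S3 and D3. Any pair of libraries had 3 to 11 cell barcodes in common. Cells were put into classes by marker genes, none of them a member, and 86.8% to 90.9% of the cells that passed the filters entered a class. A class name means cells that look like that type by these markers. In each class of at least 50 cells the median marker was seen in 58.9% to 100% of the cells, lowest in ILC2, whereas the Lyve1- macrophage markers were also seen in other cells, with a median of up to 65.3%. Between 7.16% and 12.5% of the classed cells lay within 0.05 of the gate. The injured brain library stood apart from the other 3 in the make-up of its ribosomal protein UMIs, as described below with the members.

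The share of UMIs that came from the members differed widely between classes. In brain S3 the pooled share ran from 4.45% in immature neutrophils to 34.5% in T cells, a 7.76-fold range over 13 classes, and the range was 6.54-fold in dura mater S3, 6.06-fold in dura mater D3 and 4.64-fold in brain D3. Single cells ranged from 0.685% to 55.0%. No interval of a pooled share was wider than 0.316 percentage points (exact binomial, 95%).

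**Figure D1:**
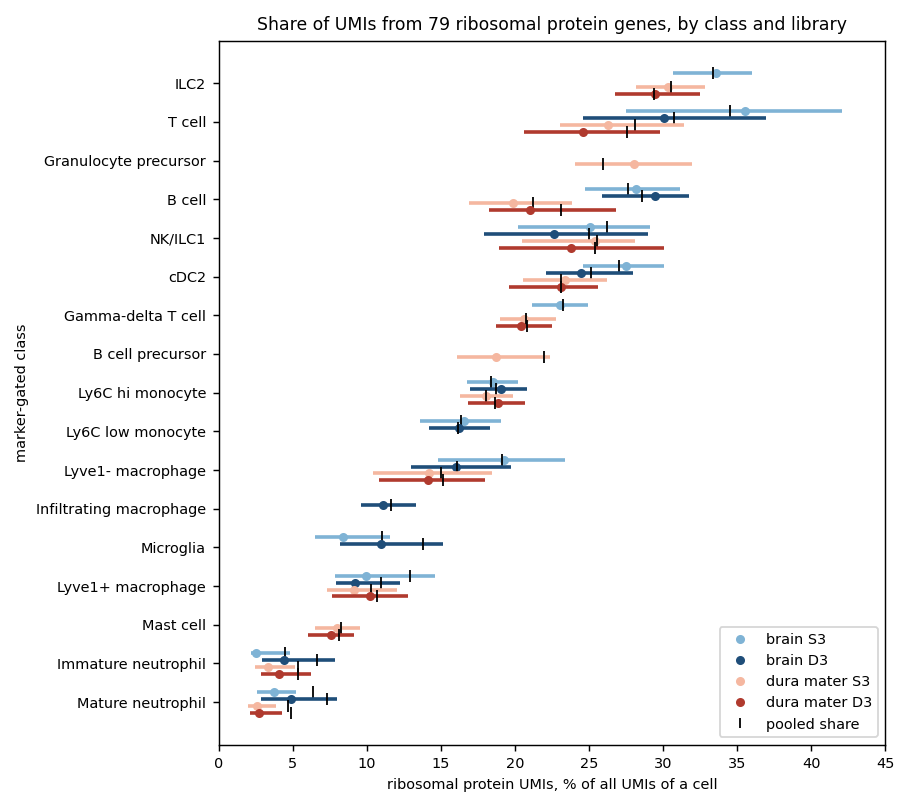
Share of a cell's UMIs that came from the 79 members (x axis, percent) in each class (y axis), with a point at the median cell, a line over the middle quartiles and a black tick at the pooled share, coloured by library. Lymphocyte classes lie to the right, neutrophils, mast cells, microglia and Lyve1+ macrophages to the left, and the 4 libraries of a class lie close together next to the distance between classes.

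T cells and ILC2 had the largest shares in the libraries that held them. T cells held 34.5% in brain S3, 30.7% in brain D3, 28.1% in dura mater S3 and 27.6% in dura mater D3. The dura mater values lay close together, and brain S3 was the highest of the 4. ILC2, the innate lymphoid cells of type 2 responses, held 33.4% in brain S3, 30.6% in dura mater S3 and 29.4% in dura mater D3. B cells held 27.6% and 28.6% in brain S3 and D3, and 21.2% and 23.1% in dura mater S3 and D3. NK/ILC1 cells lay between 25.03% and 26.2% in all 4 libraries. Gamma-delta T cells were lower, at 23.2% in brain S3, 20.7% in dura mater S3 and 20.8% in dura mater D3. The order of NK/ILC1 and B cells thus depended on the tissue, whereas T cells and ILC2 were above both in all libraries in which they were compared.

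T cells were spread widely, from 27.5% to 42.1% between the quartiles of brain S3. T cells with a UMI of Lef1, a transcription factor of naive and memory T cells, had a pooled share of 36.7% (456 cells) in brain S3 against 29.0% in the 194 cells without one. The order was the same in brain D3 with 31.9% against 29.4%, in dura mater S3 with 29.8% against 24.7%, and in dura mater D3 with 31.2% against 25.1%. The cells with Lef1 had more UMIs in all 4 libraries, for example a median of 7643 against 6796 in brain S3. T cells of brain S3 with at least 2 of 6 proliferation genes held 23.9% (32 cells), below the 36.6% of 539 cells with none. These 32 cells had a median of 17009 UMIs and the 539 cells 7149.

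Among mononuclear phagocytes the conventional dendritic cells (cDC2) had the largest share in every library, and Lyve1+ macrophages the smallest but for microglia of brain S3. The cDC2 held 27.01% in brain S3, 25.1% in brain D3 and 23.1% in both dura mater libraries. Ly6C hi monocytes, the inflammatory monocytes of blood, held 18.4%, 18.7%, 18.02% and 18.7% in brain S3, brain D3, dura mater S3 and dura mater D3, the narrowest spread among the phagocyte classes found in all 4 libraries. Ly6C low monocytes held 16.4% in brain S3 and 16.1% in brain D3. Lyve1- macrophages held 19.1%, 16.1%, 15.003% and 15.1% in the same order as above. Lyve1+ macrophages, the perivascular and meningeal type, held 12.9%, 10.9%, 10.3% and 10.7%. Microglia, the resident macrophages of the brain, held 11.0% at S3 and 13.8% at D3. Mast cells of the dura mater held 8.26% and 8.14%.

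The lowest shares were those of neutrophils. The median mature neutrophil had 3.72% in brain S3, 4.91% in brain D3, 2.59% in dura mater S3 and 2.73% in dura mater D3. Pooled shares were larger, at 6.37%, 7.31%, 4.68% and 4.85%, since a tail of cells above 10% (38 of 407 in brain S3, 45 of 341 in brain D3, 20 of 450 in dura mater S3 and 17 of 251 in dura mater D3) held 10.7% to 25.3% of the UMIs of the class. In brain S3 these 38 cells had a median of 17290 UMIs against 4115 in the others, and 19 of the 38 held at least 2 UMIs of 5 lymphocyte genes, as against 15 of the others. In brain D3 4 of the 45 did, in dura mater S3 11 of the 20 and in dura mater D3 6 of the 17. No doublet caller was run, and the part of doublets in the tail was not tested. Without these cells the pooled share of mature neutrophils was 4.14%, 4.83%, 3.23% and 3.36% in the same order.

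The 57 granulocyte precursors of dura mater S3, the only library with at least 50 of them, held 26.0% of their UMIs in the members. Immature neutrophils of the same library held 5.35% and mature neutrophils 4.68%. On the log2 scale the share of mature neutrophils was at -2.47 against that of precursors (-2.48 to -2.46, 95% interval), and between the median cells at -3.44. A median precursor held 6271 member UMIs and 21994 others, and a median mature neutrophil 140.5 and 5329, so the members differed more than the other RNA did. At least 2 of 6 proliferation genes were seen in 71.9% of the precursors and in 0.444% of the mature neutrophils. S100a9 and S100a8, which encode the calprotectin of neutrophil granulocytes, took 12.3% and 9.10% of the UMIs of mature neutrophils in dura mater S3, and 2.07% and 1.89% in precursors. Between mature and immature neutrophils the direction differed between tissues, with a log2 ratio of 0.52 in brain S3 and 0.14 in brain D3, but -0.19 and -0.15 in dura mater S3 and D3. The value of brain D3 turned to -0.10 without the cells above 10%, and that of dura mater S3 to 0.31 among cells of 5000 to 15000 UMIs, so that the contrast between tissues did not hold under these settings.

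All 79 members had lower UMIs per 1000000 (CPM) in mature neutrophils than in precursors, and 78 were lower past 1.5-fold, where 39.8% of 4514 genes of at least 100 UMIs were lower and 38.9% higher past that fold. The median member was at -2.56 on the log2 scale and the median of all genes at 0.00. Rps2 had 5438 CPM in precursors and 406.6 in mature neutrophils, a log2 ratio of -3.74. Rpsa went from 5907 to 512 CPM (-3.53), Rpl14 from 2559 to 227 CPM (-3.49), Rpl10a from 2642 to 243 CPM (-3.44) and Rpl36al, a close copy of Rpl36a, from 535 to 41.1 CPM (-3.70). These were the members that differed most. Rps9, a protein of the small subunit, went from 3235 to 1824 CPM (-0.83) and Rps27 from 2139 to 1287 CPM (-0.73), so that they differed least besides Rps27rt, which went from 86.8 to 64.3 CPM (-0.43, -0.77 to -0.10). B cells and B cell precursors of dura mater S3, by contrast, had nearly the same share, 21.2% and 21.97%, and their median cells lay in the opposite order, 19.8% and 18.7%.

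Other genes of the translation machinery were low in mature neutrophils as well. The fixed list of elongation factors and other TOP mRNAs had all 16 genes tested lower past 1.5-fold against precursors (median -2.51), that of ribosome biogenesis 12 of 14 (median -3.19), and the proteins of the mitochondrial ribosome 50 of 51 (median -2.56). Polr1a, a subunit of RNA polymerase I, and Mrpl33 were the exceptions that were higher, at 2.07 and 0.71. Fau, which encodes a ubiquitin-like protein fused to a small subunit protein, fell short of that fold at -0.56, whereas Rack1 was at -2.46. The proliferation genes were lower in 5 of 5 tested, with a median of -5.78.

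The share differed less between injured and control libraries than between classes. In the dura mater none of 12 classes differed by more than 0.125 on the log2 scale in the pooled share. The largest pooled difference was that of B cells, from 21.2% at S3 to 23.1% at D3 (log2 ratio 0.12). The next was that of ILC2, from 30.6% to 29.4% (-0.06). For gamma-delta T cells, cDC2 and NK/ILC1 the interval of the ratio held 0. Between median cells immature neutrophils differed most, from 3.35% to 4.05% (0.27), then Lyve1+ macrophages, from 9.12% to 10.2% (0.16). The other classes lay between -0.10 and 0.08 by this measure. In these comparisons no member passed 1.5-fold in any class, in either direction, while some of all genes tested did. Those genes made up 7.06% in Lyve1+ macrophages, 4.59% in Lyve1- macrophages, 8.1% in Ly6C hi monocytes, 7.53% in cDC2 and 6.6% in mast cells. They made up 13% in mature and 9.35% in immature neutrophils. In lymphoid classes they made up 3.34% in NK/ILC1, 5.19% in T cells, 4.22% in gamma-delta T cells, 7.04% in ILC2 and 10.5% in B cells. The largest member difference was that of Rplp0 in mature neutrophils, with 629.7 CPM at S3 and 817.5 CPM at D3 (log2 ratio 0.38, 0.28 to 0.47).

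In the brain the log2 ratios of the share ran from -0.25 to 0.57 over 11 classes, 5 above 0 and 6 below. Immature neutrophils had the largest ratio, with 4.45% in 91 cells at S3 and 6.62% in 141 cells at D3 (0.57). The share of immature neutrophils with at least 2 proliferation genes went from 12.1% to 39.01% of cells in the same comparison. Microglia went from 11.0% to 13.8% (0.32, 0.31 to 0.32), and their median cells from 8.36% to 11.0%. Lyve1+ macrophages went from 12.9% to 10.9% (-0.24) and Lyve1- macrophages from 19.1% to 16.1% (-0.25). T cells went from 34.5% to 30.7% (-0.17), with their median cell from 35.6% to 30.04%. T cells with a UMI of Lef1 were 456 of 650 at S3 and 69 of 147 at D3. Their pooled share went from 36.7% to 31.9%, and that of T cells without one from 29.0% to 29.4%. The part of this make-up in the lower share was not tested. The cDC2 were at -0.10, and Ly6C hi and Ly6C low monocytes, B cells and NK/ILC1 lay between -0.07 and 0.05. Mature neutrophils had a ratio of 0.20, which was 0.00 among cells of 5000 to 15000 UMIs, and the ratio of Lyve1+ macrophages turned to 0.08 among such cells.

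In microglia a median S3 cell held 771 member UMIs and 8656 others, and a median D3 cell 835 and 7353. All 6 proliferation genes were higher at D3 (median log2 ratio 2.91). The 46 injured microglia with at least 2 of these genes held 15.6% in the members, against 12.3% in 346 cells with none. These 46 cells had a median of 27080 UMIs and the 346 cells 7416.5. The list of elongation factors and other TOP mRNAs had a median log2 ratio of 0.46 and 1 of 16 genes higher past 1.5-fold, Nap1l1, at 0.70. The list of ribosome biogenesis had a median of -0.10, as all genes did, with 0 of 22 higher and 1 lower. Of the 12 genes of dissociation stress 4 were lower past 1.5-fold, Hspa1b most at -1.95. Their part in the share was not tested.

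Of the 79 members 10 were higher and 1 lower past 1.5-fold in injured microglia, where 4.23% of 7889 genes were higher and 6.88% lower. The median member was at 0.34. Rpsa had 1333 CPM at S3 and 2406 CPM at D3 (log2 ratio 0.85, 0.81 to 0.90). Rps2 had 1145 and 2030 CPM (0.83), Rpl10a 981 and 1658 CPM (0.76), Rpl32 1727 and 2810 CPM (0.70), and Rplp0 1581 and 2549 CPM (0.69). The lowest were Rps27rt with 84.9 and 50.9 CPM (-0.74, -0.96 to -0.51), Rps27 with 1820 and 1243 CPM (-0.55), Rpl27 with 366 and 258 CPM (-0.50) and Rps29 with 4020 and 3047 CPM (-0.40). Members of 1 complex thus went in opposite directions within 1 class. This split was not particular to microglia. Rps27rt, Rps27, Rpl27 and Rps29 were below the median member, and Rpsa, Rps2 and Rplp0 above it, in all 11 brain classes, as described below.

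In other brain classes the count of members past 1.5-fold lay above or below that of all genes. Immature neutrophils had 44 members higher and 1 lower, beside 19.9% of all genes higher and 9.05% lower, with a median member at 0.62. Their highest members were Rpl10a with 211 CPM at S3 and 490 CPM at D3 (1.21), Rpl15 with 321 and 676 CPM (1.07) and Rplp0 with 660.5 and 1379.69 CPM (1.06). Mature neutrophils had 4 higher and 2 lower, beside 9.07% and 10.5% of all genes. Rplp0 again had the highest ratio there, with 911 and 1479 CPM (0.70).

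No member was higher past 1.5-fold in any of the other 8 classes. Lyve1+ macrophages had 11 members lower, beside 5.21% of all genes higher and 5.09% lower, and Lyve1- macrophages 12, beside 9.88% and 15.9%. Rps27rt was lowest in both, with 116 and 40.7 CPM in Lyve1+ macrophages (-1.51) and 144 and 56.4 CPM in Lyve1- macrophages (-1.35). Ly6C hi monocytes had 3 lower, beside 5.91% and 7.98%, and Ly6C low monocytes 2, beside 4.18% and 4.29%. The cDC2 had 7 lower, beside 6.63% and 4.39%, and NK/ILC1 7, beside 2.61% and 3.55%. T cells had 8 lower, beside 6.37% and 5.89%, and B cells 2, beside 5.11% and 11%.

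T cells of the injured brain also had more UMIs of abundant myeloid genes. Of the 11 most abundant myeloid genes outside the ribosome, 8 were higher past 1.5-fold than in S3 T cells, Spp1 most at 5.83, and their part in the lower share was not tested. In the T cells of the dura mater 1 of 10 was higher and 1 lower.

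The infiltrating macrophages of the injured brain, which were found in no other library with at least 50 cells, held 11.6% of their UMIs in the members (784 cells). This was below Ly6C hi monocytes of the same library at 18.7% (log2 ratio -0.69), Lyve1- macrophages at 16.1% (-0.47) and microglia at 13.8% (-0.25), and close to Lyve1+ macrophages at 10.9% (0.09). Between median cells the ratio to microglia was 0.01, and it was 0.34 among cells of 5000 to 15000 UMIs. A median infiltrating macrophage held 2563 member UMIs and 20575 others, against 2777 and 11603 in a Ly6C hi monocyte. The member UMIs per cell were thus nearly the same and the other UMIs more. Against Lyve1- macrophages 13 members were lower past 1.5-fold, beside 12.8% of all genes. Against Ly6C hi monocytes all 79 members were lower, 50 of them past 1.5-fold, where 20.6% of 8902 genes were lower and 18.2% higher, and the median member was at -0.65. Rpsa had 1823 CPM in infiltrating macrophages and 4433 in Ly6C hi monocytes (-1.28), Rps9 2160 and 4850 (-1.17) and Rplp0 2287 and 4973 (-1.12). Rps2 differed least, with 2131 and 2277 CPM (-0.10).

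Beside them 10 of the 16 elongation factors and other TOP mRNAs were lower past 1.5-fold (median -0.79). The lists of ribosome biogenesis (23 genes, median 0.01, 1 higher and 3 lower) and of the mitochondrial ribosome (77 genes, median -0.04, 2 higher and 2 lower) lay near the median of all genes at -0.06. Apoe and Ftl1 took 5.48% and 3.02% of the UMIs of infiltrating macrophages, and without the 50 most abundant other genes the log2 ratio to Ly6C hi monocytes was -0.50. The proliferation genes were lower in 6 of 6, with a median of -4.90.

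**Figure D2:**
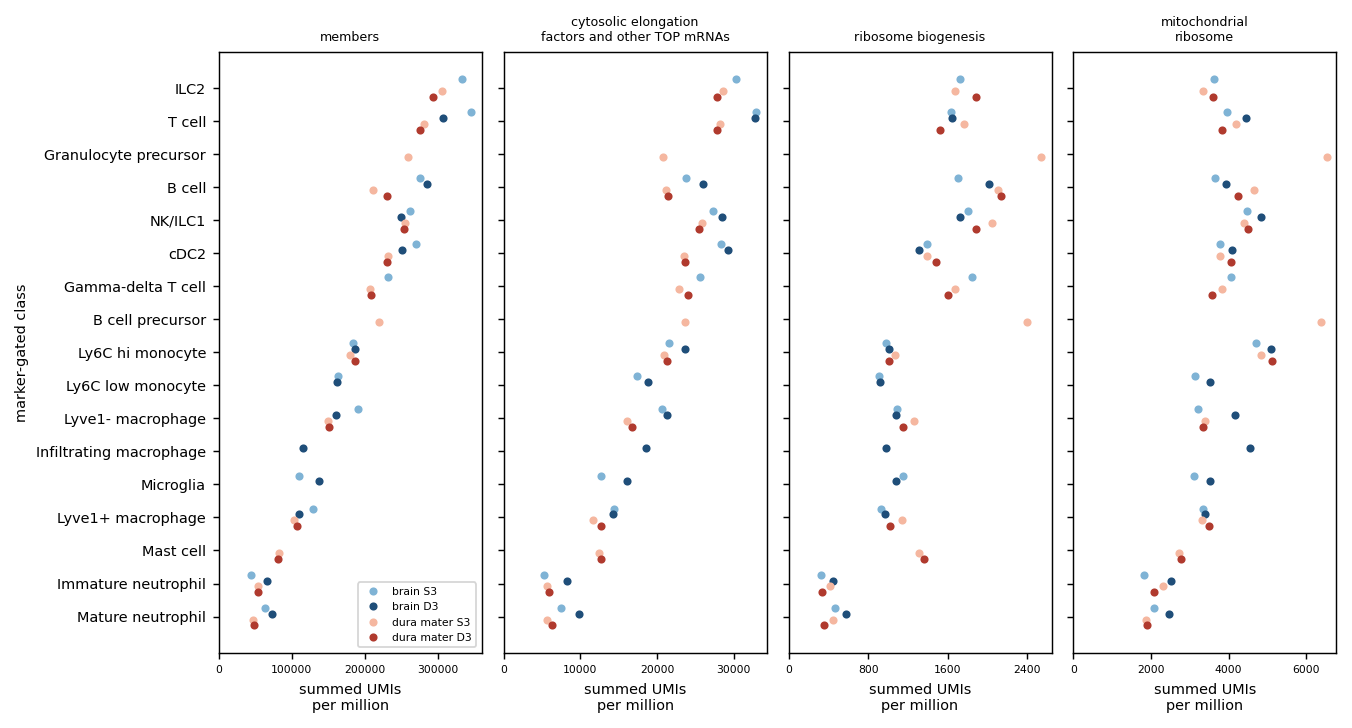
Summed UMIs per 1000000 (x axes, each from 0) of the members and of 3 lists of the translation machinery in each class (y axis, in the order of the median share) and library (colour). The members and the elongation factor and TOP list are highest in T cells of brain S3, and the biogenesis and mitochondrial ribosome lists in granulocyte precursors.

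Between the control libraries the share was higher in the brain than in the dura mater in 10 of 11 classes. The exception was immature neutrophils, at 4.45% and 5.35%, where the log2 ratio of -0.27 turned to 0.048 without the filter on cells. In T cells all 79 members were higher in the brain and none past 1.5-fold, beside 3.94% of all genes (log2 ratio of the share 0.30, median of all genes -0.17). In B cells 76 of 79 were higher, with 4 past 1.5-fold, beside 4.85% of all genes (share 0.38, median of all genes -0.27). The B cells of the dura mater held more cycling cells. All 6 proliferation genes were lower in brain B cells (median -3.27), beside 21.4% of all genes lower past 1.5-fold. The 47 dura mater B cells with at least 2 of these genes held 19.8% against 21.5% in 412 cells with none. These 47 cells had a median of 13327 UMIs and the 412 cells 5123.5. The myeloid genes were lower past 1.5-fold in brain T cells for 7 of 10, beside 13% of all genes, and their part in the difference was not tested. Mature neutrophils had all 79 members higher in the brain and 11 past 1.5-fold, beside 11.7% of all genes, and the tail of cells above 10% was larger there. In Ly6C hi monocytes and NK/ILC1 the tissue difference was 0.03 and 0.04.

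Within the ribosomal protein UMIs, the share of each member changed with the class as well. Over the 51 groups of class and library the range of a member's share had a median of 0.92 on the log2 scale, and 37 of 79 members had a range over 1. In a library of this kind, which captures the 3′ end, a UMI counts 1 captured molecule, so these are shares of captured molecules. Whether capture depended on the length of the mRNA was not tested. Rps24, Rps29 and Rplp1 had the most UMIs over all libraries (1105088, 1054604 and 1022917), and Rps27rt, Rpl36al and Rpl13a the fewest (26567, 63482 and 87054). Reads of close copies may be lost or moved in mapping, so that the levels of Rps27 and Rps27rt, of Rpl36a and Rpl36al and of members with many pseudogenes are uncertain. The 8 pseudogene symbols in the files held 0.0748% to 0.0761% of the UMIs of the members in each library.

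Rplp1 of the acidic stalk took 5.81% and 5.38% of the ribosomal protein UMIs of mast cells in dura mater S3 and D3. It took 3.26% to 3.78% in ILC2 and 3.19% to 3.61% in Lyve1+ macrophages, and only 1.39% to 1.53% in immature neutrophils. Its partner Rplp0 ran from 1.06% in Lyve1+ macrophages of dura mater S3 to 2.66% in Ly6C hi monocytes of brain D3, with 1.29% and 1.30% in mast cells. Rps29 was highest in Lyve1+ macrophages, with 4.81%, 3.57%, 5.11% and 5.21% in brain S3, brain D3, dura mater S3 and dura mater D3, and 1.38% to 2.14% in NK/ILC1.

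Rps9 took 3.74%, 3.79%, 3.90% and 4.13% in mature neutrophils of brain S3, brain D3, dura mater S3 and dura mater D3, and 1.21% to 1.45% in NK/ILC1. Granulocyte precursors were at 1.246%, and immature neutrophils of the same library at 2.72%. Rps27a, which encodes ubiquitin fused to a small subunit protein, likewise took 2.94% to 3.796% in mature neutrophils and 1.39% to 1.54% in T cells. Rpl12, a protein at the base of the stalk, took 1.57% to 1.77% in T cells and was lowest in immature neutrophils at 0.586% to 0.732%. Rpl36al had its highest shares in Ly6C hi monocytes of the dura mater, at 0.210% and 0.218%, and its lowest in ILC2 of brain S3 at 0.0705%. Rps2, Rpl36a and Rpl35 were highest in granulocyte precursors, at 2.09%, 0.807% and 0.843%. Cells above 10% were also found among immature neutrophils (7 of 91 in brain S3, 21 of 141 in brain D3, 28 of 385 in dura mater S3 and 21 of 223 in dura mater D3), so that the composition of all 8 neutrophil groups includes such cells.

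The members with the narrowest ranges kept nearly the same share in all classes. Rps10 ran from 1.46% to 1.86% (range 0.35), Rps15 from 0.730% to 0.990% (0.44), Rps23 from 1.32% to 1.83% (0.47) and Rpl11 from 0.984% to 1.37% (0.48). Members with a known role or a close copy had ranges on both sides of the median of 0.92, for example 0.56 in Rplp2 and 1.10 in Rpl10. Rps6, the small subunit protein that S6 kinases phosphorylate, ran from 0.720% in Lyve1+ macrophages of dura mater D3 to 1.12% in ILC2 of brain S3. Rplp2 of the stalk ran from 0.935% to 1.38% and thus over a narrower range than Rplp1. The X-linked Rps4x ran from 1.19% to 1.96%, Rpl22 from 0.515% to 0.825%, Rpl39 from 0.949% to 1.77%, Rpl10 from 0.837% to 1.79% and Rpl41 from 0.939% to 1.98%.

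**Figure D3:**
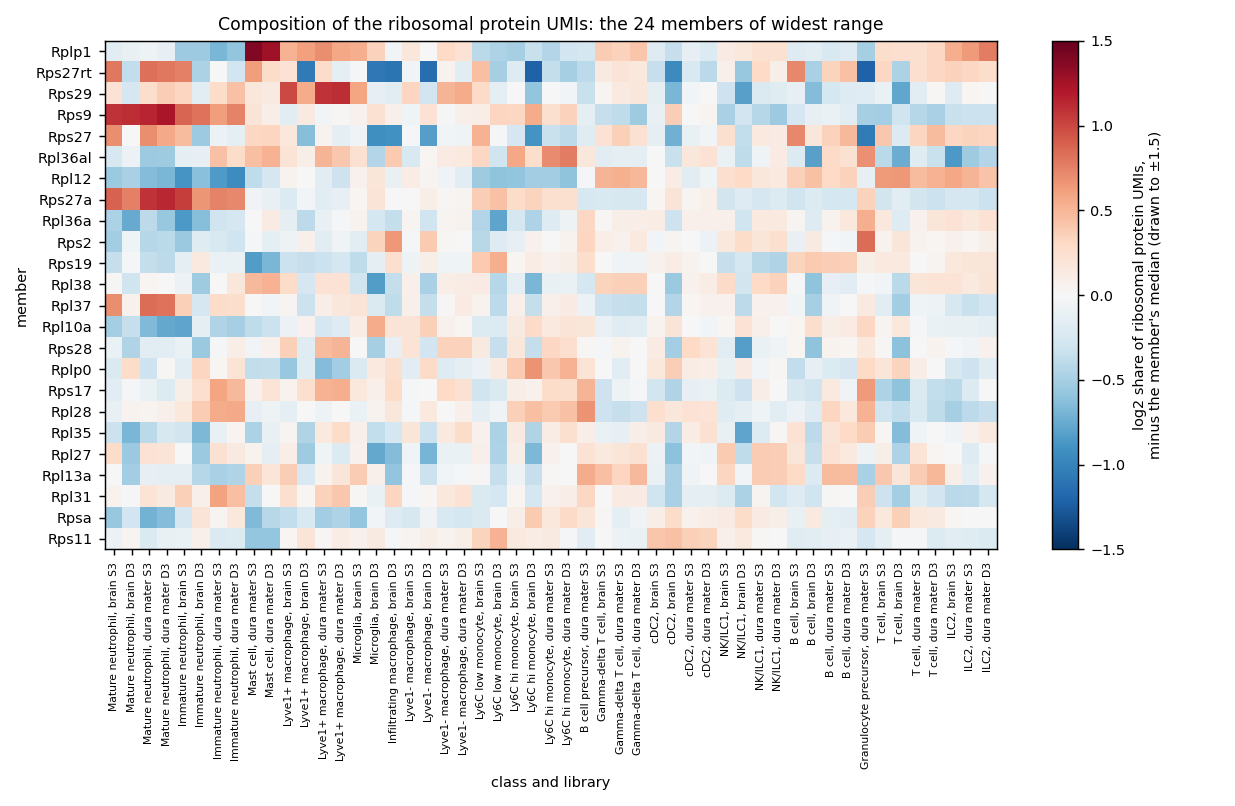
The 24 members of widest range (rows, widest at the top) in each class and library (columns, in the order of the median share), coloured by the log2 share of ribosomal protein UMIs minus the member's median over columns. Rplp1 stands out in mast cells, Rps29 in Lyve1+ macrophages, Rps9 and Rps27a in neutrophils, and Rps27rt and Rps27 are low in most columns of brain D3.

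Without the injured brain library, 24 members in place of 37 had a range over 1. Leaving out groups can only keep or lower a range, and no other library was left out for comparison. The fall in the count alone therefore does not tie the range to this library. In all 11 brain classes the same members were low at D3 after each class's median member was set to 0. Of the members 18 were below it in every class and 12 above it in every class, and in the dura mater, over 12 classes, 0 were below and 1 above. The SD over members was 0.25 to 0.32 in the brain and 0.05 to 0.11 in the dura mater. Over other abundant genes it was 0.21 to 0.82 in the brain and 0.14 to 0.45 in the dura mater. In the brain this SD was below that of the members in NK/ILC1 and B cells and above it in the other classes. The classes share both libraries. The median correlation of the members' values between brain classes was 0.87 over 79 members, as against 0.19 in the dura mater. The 9 classes of brain D3 set against dura mater D3 gave the same picture with an SD of 0.27 to 0.31.

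Rps27rt was lowest with a mean of -1.05 over the 11 classes (-1.33 to -0.64), then Rps27 at -0.75, Rpl27 at -0.69, Rps29 at -0.59, Rps28 at -0.58, Rpl35 at -0.57, Rpl38 at -0.55 and Rps21 at -0.50. In the dura mater the means were -0.14 for Rps27rt, -0.02 for Rps27, -0.04 for Rpl27 and 0.06 for Rps29. Highest were Rplp0 at 0.28, Rpl15 at 0.23, Rpl14 at 0.23 and Rpsa and Rps2 at 0.22. In T cells, for example, Rps27rt went from 333 to 171 CPM in the brain and from 259 to 264 CPM in the dura mater, Rps27 from 7797 to 4550 CPM and from 6000.5 to 6542 CPM, and Rps29 from 7811 to 4327 CPM and from 6100.3 to 6756 CPM. Past 1.5-fold, 44 members were higher in at least 1 brain class, which is the number that immature neutrophils had alone. In at least 1 brain class 14 were lower. The matching counts over all genes were not made, so these counts have no background to be read against. Rps27rt was lower in 11 of 11 classes, Rpl27 in 7, and Rps27 and Rps28 in 6.

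**Figure D4:**
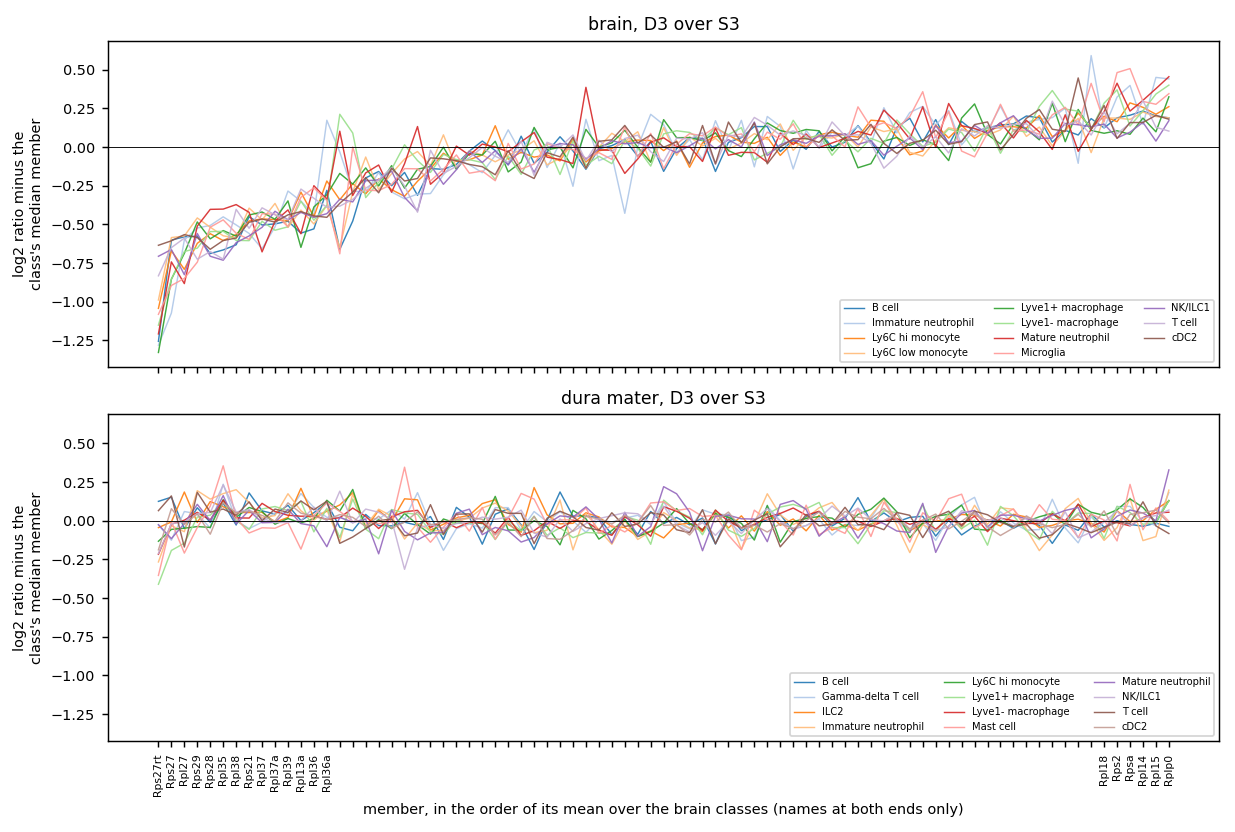
Log2 ratio of D3 over S3 for each member (x axis, in the order of its mean over the brain classes, with names at both ends only), minus the median member of the class (y axis), with 1 line per class, for the brain (top) and the dura mater (bottom). The 11 brain lines run together from -1.05 on average at Rps27rt to 0.28 at Rplp0, and the 12 dura mater lines lie around 0, with Rps27rt down to -0.41 in 1 class.

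Low members tended to be short. Of the 18 members below the median member in every brain class 9 had up to 300 coding nt, and their median coding length was 303 nt, as against 690 nt for the 12 members above it in every class. Over 79 members the mean value in the brain correlated with log2 of the coding length at r = 0.69, and at -0.20 in the dura mater (across genes, which are not independent replicates). The 10 members of up to 300 coding nt (Rpl41, Rpl39, Rps29, Rps28, Rpl38, Rps21, Rps27, Rps27rt, Rpl37a and Rpl37) had a median of -0.52 and the other 69 of 0.04, and 9 of the 10 were below the median member in every class, Rpl41 being the exception. In the dura mater the 2 medians were 0.03 and 0.00. Ratios of non-member genes were taken without setting the median member to 0, and only for genes tested in every class. They are thus not on the same scale as the values of the members. Among 105 non-member genes of up to 300 coding nt the median log2 ratio over the brain classes was 0.05, with 46 below 0. It was 0.16 in 217 genes of 300 to 500 nt (33 below 0) and 0.13 in 485 genes of 500 to 1000 nt (127 below 0). In 466 genes of 1000 to 2000 nt it was 0.02 (219 below 0), and in 305 longer genes -0.07 (201 below 0). In the dura mater non-members of up to 300 nt were at 0.03 and those of 300 to 500 nt at -0.03. The part of length in these values was not tested.

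The shift touches the share itself. The 10 short members together went in T cells from 4.55% to 2.89% of all UMIs in the brain and stood at 3.801% and 3.92% in the dura mater. In microglia they went from 1.55% to 1.34%, while the other 69 went from 9.49% to 12.4% (log2 ratio 0.39). With only these 69, the ratio of T cells in the brain was -0.11, that of NK/ILC1 -0.01 and that of Ly6C hi monocytes 0.08. The shift went with 1 library in every class, so that injury and the making of that library cannot be told apart for it, and its cause was not tested.

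**Figure D5:**
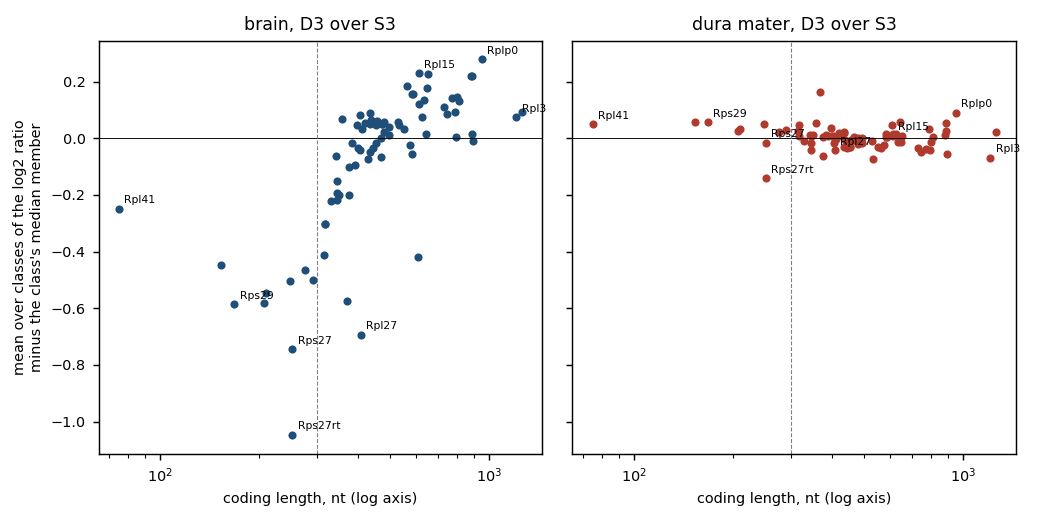
Mean over classes of the log2 ratio of D3 over S3 minus the class's median member (y axis) against coding length (x axis, log scale, dashed line at 300 nt), 1 point per member, for the brain (left) and the dura mater (right). In the brain the members left of the line lie between -1.05 and -0.25 and those over 500 nt mostly above 0, whereas in the dura mater all lie between -0.14 and 0.16.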

How the data were processed

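CD45+ cells were profiled on the 10x Chromium platform, with 1 library per condition and no replicates. Per the labels, the authors mapped reads with Cell Ranger 3.1.0 to mm10 and normalized them in Seurat 3.1.0. Each deposited value is a natural log, ln(1 + x), where x is the gene's part of the cell's UMIs scaled to 10000, and genes seen in fewer than 3 cells are not listed. The plan had assumed raw counts. Every value turned back into whole UMIs, which were used, with genes not listed set to 0.

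Cells were kept if they had more than 1000 and under 6000 genes with a mitochondrial part of 7% or less. Each of 20 fixed marker lists was scored as the mean of its scaled log values (capped at the 90th percentile), and a cell took the class with the highest score, if at least 0.3 and ahead by 0.05. The scoring was set after the data were seen. Neither doublets nor free RNA were removed. Groups under 50 cells were not compared. UMIs were summed per class and library. Shares have exact binomial and ratios exact conditional Poisson 95% intervals. A gene was compared, at 1.5-fold, if the summed UMIs of both groups reached 100.

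Named genes were, per comparison, at most 5 members per direction with the largest ratio, the 6 members of widest range, the 3 highest and lowest by UMIs, a set with a known role or a close copy (such as Rps6, Rplp2, Rpl10 and Rps4x), and members of fixed lists. Rpl12, Rps27a, Rpl35, Rps10, Rps15, Rps23 and Rpl11, and those named for the injured brain library beyond the rule, were chosen after their values were seen. Rpl10l and Rps4l were not analysed here. Some genes that the rule would name are not reported here. Members and lists were chosen with earlier results of these data known. Steps were tested on simulated data. Software was Python 3.11.15 (scipy 1.17.1, pandas 2.3.3, numpy 2.4.6, matplotlib 3.10.9).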

Additional observations from a re-analysis of the deposited data

Results flagged for a closer look

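The share of the members in Lyve1+ macrophages went in opposite directions after injury in the 2 tissues, with a log2 ratio of -0.24 in the brain and 0.05 in the dura mater. Lyve1- macrophages had -0.25 in the brain and 0.01, which is close to 0, in the dura mater. Between their median cells the ratios were -0.26 and -0.003, so that the directions were not opposite by that measure. Among cells of 5000 to 15000 UMIs the brain value of Lyve1+ macrophages turned to 0.081, so that the directions were no longer opposite, and that of Lyve1- macrophages was -0.090. With 1 library per condition the difference between tissues was not tested. Among members of over 300 coding nt the values in the brain were -0.17 and -0.18.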

How the results depend on the processing

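No paired analysis was possible because each condition has 1 library, and no library could be left out within a group. Of 45 log2 ratios of the share, the sign changed for 3 without the filter on cells, 0 with a stricter gate, 3 without the 5% of cells with the most UMIs, 9 of 39 among cells of 5000 to 15000 UMIs, 1 with mitochondrial UMIs out of the total, 3 with the 50 most abundant other genes out of it and 5 with the median of cells. With members over 300 coding nt alone, an alternative chosen after seeing the data, 2 signs changed. The cause of these moves was not tested.

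Without the filter on cells the log2 ratio after injury in the brain was -0.16 in Lyve1+ macrophages, -0.24 in Lyve1- macrophages and 0.35 in immature neutrophils. Brain over dura mater was 0.33 in T cells, 0.32 in B cells and, turned, 0.048 in immature neutrophils. Infiltrating macrophages over Ly6C hi monocytes gave -0.65, and mature neutrophils over precursors -2.51. In the same order of comparisons, the stricter gate gave 0.34 in microglia, -0.16, -0.23, 0.28 in mature and 0.50 in immature neutrophils, 0.33 in B cells, -0.72 and -2.78. Without the 5% of cells with the most UMIs the values were 0.43 in microglia, -0.18 and -0.24 in macrophages, 0.15 in mature and 0.60 in immature neutrophils, 0.33 in T cells, 0.41 in B cells, -0.70 and -2.96.

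Among cells of 5000 to 15000 UMIs the values were 0.27 in microglia, 0.081 in Lyve1+ macrophages, which turned, -0.090 in Lyve1- macrophages, 0.00077 in mature and 0.45 in immature neutrophils. They were 0.34 in T cells, 0.41 in B cells and -0.42 for infiltrating macrophages over Ly6C hi monocytes. Infiltrating macrophages over microglia turned to 0.34 and mature over immature neutrophils in dura mater S3 to 0.31. Mature neutrophils over precursors could not be computed in this range because too few cells were left. Leaving mitochondrial UMIs out gave 0.33 in microglia, -0.25 in Lyve1- macrophages, -0.70 for infiltrating macrophages and -2.52 for mature neutrophils.

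Leaving out the 50 most abundant other genes gave 0.30 in microglia, -0.21 and -0.25 in macrophages, 0.21 in mature and 0.47 in immature neutrophils, 0.41 in B cells, -0.50 for infiltrating macrophages over Ly6C hi monocytes and -2.04 for mature neutrophils over precursors. The median of cells gave 0.39, -0.12, -0.26, 0.40, 0.82, 0.44 in T cells, 0.50 in B cells, -0.78 and -3.44, and 0.013 for infiltrating macrophages over microglia. Members over 300 coding nt gave 0.39, -0.17, -0.18, 0.27, 0.64, 0.30 in T cells, 0.36 in B cells, -0.71 and -2.55. Without cells above 10%, also chosen after seeing the data, mature neutrophils over precursors were at -3.01.

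Mature over immature neutrophils in brain D3 turned to -0.16 without the 5% of cells with the most UMIs, to -0.14 without the 50 genes and to -0.10 without cells above 10%. The 10 members higher in injured microglia became 43 at the smallest fold tried, 0 at 2-fold and 17 relative to the median of all genes. The 1 lower became 5 at the smallest fold tried, 0 at 2-fold and 2 without the filter on cells. The 50 members lower in infiltrating macrophages became 8 at 2-fold. Without the injured brain library 24 members had a range over 1, in place of 37.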

Other observations

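Cycling cells did not have the same share of ribosomal protein UMIs relative to other cells of their class in every class. In immature neutrophils of dura mater S3, cells with at least 2 of 6 proliferation genes held 6.34% against 3.77% in cells with none, and in dura mater D3 6.32% against 3.94%. In Lyve1+ macrophages of dura mater D3 the values were 12.6% and 10.2%, and in Lyve1- macrophages of that library 17.6% and 14.2%. Lyve1- macrophages gave 20.1% against 19.1% in brain S3 but the opposite order in brain D3, 15.6% against 16.4%, and in dura mater S3, 14.97% against 15.2%. Immature neutrophils of brain D3 were close together, at 6.57% and 6.45%. In Ly6C hi monocytes the order was the opposite in all 4 libraries, with 17.5% against 18.9% in brain S3, 16.9% against 19.3% in brain D3, 17.5% against 18.3% in dura mater S3 and 17.9% against 18.8% in dura mater D3. Cycling cells had more UMIs in all these groups, for example a median of 29737 against 11999 in immature neutrophils of dura mater S3.

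The paralogs left out by the rule were rare. Rpl22l1 had 0.208% to 0.252% of the members' UMIs in a library and Rps27l 0.0891% to 0.209%, highest in brain D3, while Rpl3l and Rpl39l had 0.00140% or less. Rps27l, a copy of Rps27, was higher in injured microglia (log2 ratio 0.64), where Rps27 was lower. This was not particular to microglia. Taken over the brain classes Rps27l was at 0.46, and over the dura mater classes at 0.05. Rps27 was below the median member in all 11 brain classes. The levels of close copies are uncertain, as given above.

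Among the 15 regulators of mTORC1 and TOP mRNAs, injured microglia had 1 of 13 tested higher past 1.5-fold, Eif4ebp1 (log2 ratio 0.64), and 1 lower, Ddit4 (-1.43), with a median of -0.08. Infiltrating macrophages had 2 of 14 higher and 3 lower than Ly6C hi monocytes, near the 18.2% of all genes higher and 20.6% lower, with Ddit4, an inhibitor of mTORC1, the highest at 1.11. In T cells of the injured brain none of 9 passed in either direction.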
